A study of Mus musculus with 4 samples.

Results

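The genes described here are 10 neuropeptide precursors, Sst, Penk, Tac1, Cck, Npy, Grp, Vip, Pdyn, Nts and Crh, taken by symbol from the 31053 genes of a single-nucleus RNA sequencing study of the mouse superior colliculus. All 10 were found, each as 1 row. The study sampled C57BL/6J mice at embryonic day 19 (E19) and at postnatal days 4, 8 and 21 (P4, P8 and P21), with no genetic change or treatment named in the labels. Each stage was 1 library made from tissue pooled over several animals, so that no value below has a replicate and every difference between stages is a difference between libraries. The 4 libraries held 2585, 2386, 2504 and 2249 nuclei in order of age. The authors' annotation placed 7552 of all 9724 nuclei in 2 neuron classes, with 13 excitatory subtypes (EN1 to EN13) and 12 inhibitory subtypes (IN1 to IN12).

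Neuropeptides are short signalling peptides cut from larger precursor proteins. Neurons pack them in dense-core vesicles and release them beside a fast transmitter, and they act on receptors that are mostly coupled to G proteins. In the superior colliculus, the midbrain centre whose superficial layers get input from the retina and whose output turns the eyes and head, excitatory and inhibitory neurons can be told apart further by the peptides they make. The genes are taken below in the order somatostatin, the tachykinin and cholecystokinin precursors, neuropeptide Y, the opioid precursors, and the peptides with few molecules.

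Unique molecular identifiers (UMIs), which count RNA molecules, were summed over the nuclei of a class or subtype in a library. Levels are the UMIs of a gene per 1000000 UMIs of that sum (CPM), with an exact Poisson 95% interval. Shares of nuclei have exact Clopper-Pearson intervals, and both kinds of interval cover counting error only. Because the reads were counted against whole transcripts with introns and not per length, levels are compared within a gene and not between genes. Median UMIs per nucleus rose with age, from 8051.5 to 19601 in excitatory, from 6075 to 14009.5 in inhibitory and from 4591 to 6062 in non-neuronal nuclei. The inhibitory class had the highest level of its own markers in 16 of 16 comparisons of a marker and a library. The excitatory class did so in 6 of 12, with Slc17a6, the vesicular glutamate transporter of midbrain neurons, at 286, 241, 182 and 176 CPM in excitatory against 46.3, 38.8, 19.8 and 8.32 CPM in inhibitory neurons. Slc17a7 did not exceed 5.17 CPM in either class. Slc17a8 had 3.04, 2.75, 1.14 and 0.685 CPM in excitatory and 3.02, 3.76, 7.22 and 4.25 CPM in inhibitory neurons. From P4 on, Slc17a8 was thus higher in inhibitory neurons. A total of 9 barcodes occurred in 2 libraries and 0 in more.

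Non-neuronal nuclei, pooled here from 6 classes without dividing cells, should make little of these peptides, and their levels are given beside those of the neurons as the background level. Microglia, endothelial and vascular leptomeningeal nuclei had the highest level of their own markers in 12 of 12 comparisons each. Oligodendrocyte lineage nuclei did so in 14 of 20, astrocytes in 9 of 16 and the epithelial class in 0 of 12. The epithelial class thus goes by the deposited name only, and it gave 32 of the 514 non-neuronal nuclei at P8 and 40 of 817 at P21.

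Changes between stages are log2 ratios with 5 CPM added to both levels, which understates the change of genes with few molecules. A gene was counted as past the fold when the log2 ratio was 1 or more in size and its mean over the 4 libraries in that class was at least 5 CPM. Only 3 of the 10 genes reached that mean in excitatory neurons (Sst, Tac1 and Cck) and 4 in inhibitory neurons (the same genes and Npy), so that the counts below describe the genes with the most molecules. Npy reached it through its E19 level of 22.3 CPM, with 6.11, 1.17 and 1.77 CPM afterwards. Its calls from E19 thus follow in part from the filter. From E19 to P21, 2 genes were lower past the fold in excitatory neurons (Sst and Tac1), where 9.46% of all genes tested were. In inhibitory neurons 2 were lower as well (Sst and Npy), against 10.1% of all genes. No member was higher past the fold in either class, against 4.43% and 4.85% of all genes.

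The first step, from E19 to P4, held 4 of the 5 calls between neighbouring stages. In excitatory neurons Sst and Tac1 were lower past the fold, where 0.501% of all genes were, and in inhibitory neurons Sst and Npy were, against 0.452%. None was higher, against 0.41% and 0.389% of all genes in these classes. Npy was counted through its E19 level, and the 10 genes were chosen with earlier results of these data known. The shares over all genes are therefore no measure of enrichment. From P4 to P8 only Cck in excitatory neurons was lower past the fold, against 0.61% of all genes, and none was in inhibitory neurons, against 0.28%. None was higher, against 0.273% and 0.0994%. From P8 to P21 none of the 10 genes was lower past the fold in either class, against 2.79% and 2.89% of all genes, and none was higher, against 1.62% and 1.99%.

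**Figure D1:**
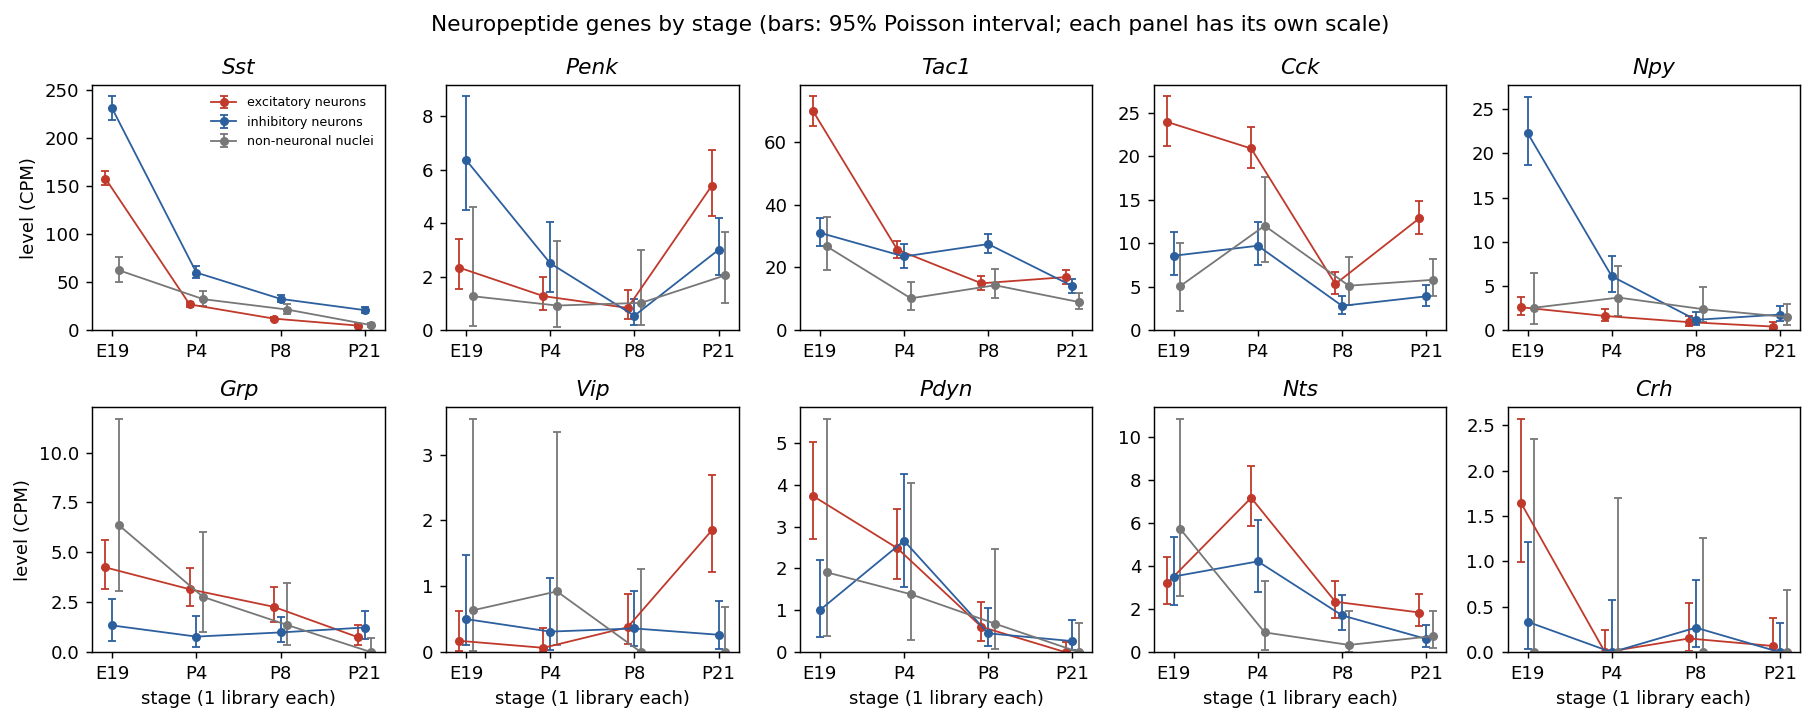
Level of each of the 10 genes (y axis, CPM, a linear scale of its own in each panel) at the 4 stages (x axis, 1 library each) in excitatory neurons, inhibitory neurons and non-neuronal nuclei, with exact Poisson 95% intervals as bars. Sst is lower at each later stage in all 3 groups of nuclei, Tac1 falls after E19 in excitatory neurons, Npy falls in inhibitory neurons, and Vip and Penk are highest at P21 in excitatory neurons.

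Somatostatin, the product of Sst (chromosome 16, 23889573 to 23890958, minus strand, GRCm38), inhibits hormone and transmitter release and marks classes of inhibitory neurons in many brain regions. In excitatory neurons its levels from E19 to P21 were 158 CPM (95% interval 151 to 165), 26.9, 12.1 and 4.79 CPM (3.74 to 6.06). In inhibitory neurons they were 231 (219 to 243), 60.0, 32.6 and 20.9 CPM (18.3 to 23.7). Both classes were highest at E19 and lower at each later stage, and no 2 stages of a class had overlapping intervals.

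Between E19 and P4 the Sst log2 ratio was -2.35 in excitatory neurons (-2.49 to -2.22) and -1.86 in inhibitory neurons (-2.01 to -1.71). Over the whole series it was -4.05 in excitatory and -3.19 in inhibitory neurons, which on the plain CPM scale is 32.9-fold and 11.0-fold lower. The level in inhibitory neurons exceeded that in excitatory neurons in all 4 libraries, with log2 ratios of 0.53, 1.03, 1.14 and 1.40 from E19 to P21. It was past the fold in 3 of them, so that neither Sst nor any other member was higher past the fold in inhibitory neurons in all 4 libraries, where 0.407% of all genes were. None was so in excitatory neurons either, against 0.38%.

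Sst UMIs were also present in nuclei that are not neurons. The non-neuronal nuclei held 0.308, 0.168, 0.123 and 0.0343 Sst UMIs per nucleus from E19 to P21, against 1.36, 0.332, 0.183 and 0.103 in excitatory neurons. In CPM the excitatory neurons stood above the non-neuronal nuclei at E19 only, since these had 62.3, 32.3, 21.5 and 5.23 CPM. When the non-neuronal UMIs per nucleus were subtracted from each class, an alternative chosen after seeing the data, the ratio from E19 to P4 was -2.80 in excitatory and -2.06 in inhibitory neurons.

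Neurons rich in Sst were fewer after E19, and those left held fewer molecules. Nuclei with at least 5 Sst UMIs made up 161 of 2231 neurons at E19 (7.22%, 6.18 to 8.37) and 44 of 1944 at P4 (2.26%). They were 16 of 1955 at P8 (0.818%) and 13 of 1422 at P21 (0.914%, 0.488 to 1.56). Neurons with at least 10 UMIs numbered 107, 9, 0 and 1, although the later libraries were deeper. Among all non-neuronal nuclei of the 4 libraries, 1 nucleus reached 5 Sst UMIs, at E19. The share of neurons with any Sst UMI moved less, from 29.6% to 17.5%, 16.7% and 10.5%. The non-neuronal shares were 24.8%, 15.3%, 11.5% and 3.43%, and those of oligodendrocyte lineage nuclei, which should lack the gene, were 23.4%, 16.7%, 10.5% and 3.27%. After each nucleus was thinned to 2000 UMIs, the share with any Sst UMI was 14.5%, 6.84%, 4.96% and 3.38% in neurons and 14.2%, 7.19%, 6.03% and 1.10% in non-neuronal nuclei. After thinning, then, the share with any Sst UMI in neurons was near that in non-neuronal nuclei from E19 to P8. Thinning keeps a larger part of the UMIs of the shallower non-neuronal nuclei, so these like shares cannot show whether the neurons were at background. The neurons stood apart by the nuclei with many molecules.

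By subtype, Sst at E19 was concentrated in 3 inhibitory groups and 1 excitatory group. IN8 held 1130 CPM at E19 (1030 to 1237), then 198, 65.8 and 39.2 CPM. IN4 held 1122 CPM at E19, then 377, 203 and 97.0 CPM, and IN12, with 23 nuclei at E19, held 708, 145, 66.2 and 50.0 CPM. IN4 and IN8 had overlapping intervals at E19. IN4 was the highest of the subtypes with at least 20 nuclei at the other 3 stages, with its interval above that of IN8 at each. Subtypes were drawn by the authors from the same nuclei, so these differences between subtypes are a description.

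EN2 was the excitatory subtype with the most Sst at E19, and its log2 ratio from E19 to P21, -5.02, was the lowest of 23 subtypes. Its levels were 554 (522 to 586), 121, 4.01 and 12.2 CPM, the last 2 from 3 and 9 UMIs. EN2 supplied 36.8% of the neuronal Sst UMIs at E19 from 12.9% of the neurons. IN4, in turn, supplied 12.2% of these UMIs at E19 and 35.9% at P21, from 3.18% and 6.61% of the neurons. Of the 161 neurons with at least 5 Sst UMIs at E19, 56 were EN2, 32 IN4, 27 IN8, 17 IN1 and 12 EN1. At P21 IN4 gave 8 of the 13 such neurons and EN2 gave none.

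The lower level after E19 was seen within subtypes rich and poor in Sst. From E19 to P4, Sst was lower in 23 of 25 subtypes with at least 20 nuclei, and in 16 of them by a log2 ratio of at least 1. The interval lay below 0 in 15 of the 25. From E19 to P21 Sst was lower by a log2 ratio of at least 1 in 23 of 23, and the interval lay below 0 in 22. EN7 and EN11 are not among the 23, with fewer than 20 nuclei at P8 and P21. EN11 held 87 Sst UMIs in 84 nuclei at E19 and 33 in 52 at P4. It held 22 in 18 nuclei at P8 and 12 in 9 at P21. Its UMIs per nucleus were thus not lower at P21 than at E19, on few nuclei and in a deeper library. The median level over subtypes was 36.5, 18.9, 12.5 and 4.42 CPM from E19 to P21, under the non-neuronal level at every stage. Counted per nucleus, which is not scaled to depth, 10, 6, 6 and 13 subtypes held over 2 times the non-neuronal Sst UMIs from E19 to P21. In CPM, the intervals of 8, 5, 3 and 5 subtypes lay above the non-neuronal level, among them IN4, IN8 and IN12 each time. The part of background RNA in the fall of the other subtypes was not tested. In IN1 the level of 24.7 CPM at P21 rested on 1 nucleus with 28 Sst UMIs, and without that nucleus it was 6.10 CPM.

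**Figure D2:**
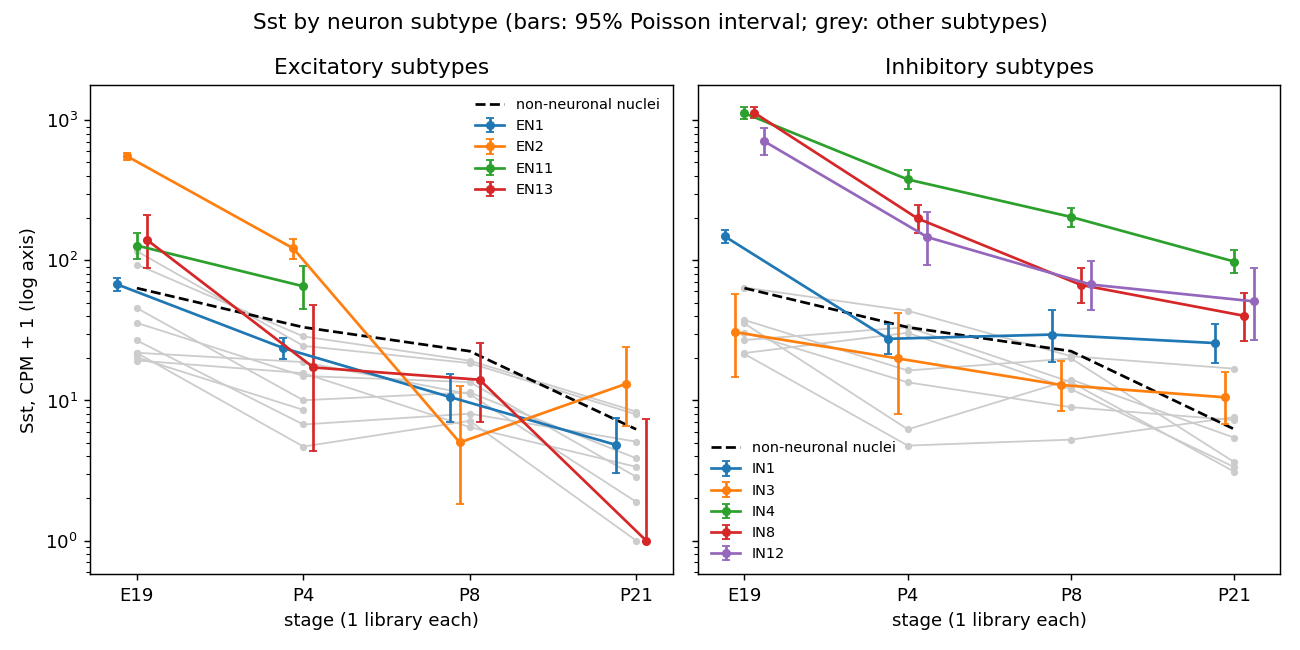
Level of Sst in each excitatory (left) and inhibitory (right) subtype at the 4 stages, as CPM plus 1 on a log axis, with exact Poisson 95% intervals on the coloured subtypes, the other subtypes in grey and the non-neuronal nuclei dashed. IN4, IN8, IN12 and EN2 start between 554 and 1130 CPM at E19. IN4 stays highest of the subtypes with at least 20 nuclei from P4 on, and EN2 drops to 4.01 CPM at P8.

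The Sst promoter is a textbook case of a gene driven by cyclic AMP through the response element TGACGTCA, the site of the factor CREB, and the windows below show where that element and its shorter form stand in these genes. RefSeq promoters on GRCm38.p6 were matched for 7 of the 10 genes (Sst, Tac1, Cck, Npy, Vip, Pdyn and Nts), and the 250 bases before each start were searched on both strands. The full element TGACGTCA, which contains the short form TGACG on both strands, was found in Sst alone among the 7, and in 1.55% of 32851 promoters. The short form TGACG, which reads CGTCA on the other strand, was found in 5 of the 7 (Sst, Tac1, Cck, Vip and Nts) and in 17.8% of all promoters. Each window is written 5′ to 3′ in the direction of the gene, with the matched letters in capitals.
Sst, chr16:23890874-23890903, minus strand, 48 bases before the RefSeq start: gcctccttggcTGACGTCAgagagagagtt
Tac1, chr6:7555006-7555035, plus strand, 43 bases before: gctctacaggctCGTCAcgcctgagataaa
Cck, chr9:121495724-121495753, minus strand, 47 bases before: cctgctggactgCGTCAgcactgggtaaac
Vip, chr10:5639127-5639156, plus strand, 79 bases before: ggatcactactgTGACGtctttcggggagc
Nts, chr10:102490567-102490596, minus strand, 166 bases before: attagggaagatCGTCActttccatcaagg
In GENCODE M21 the Sst match and the Tac1 match shown lie inside an annotated first part of the gene (an exon), and the other 3 lie upstream of the gene. Tac1 had a further CGTCA 197 bases before its start. A match of letters is a description of the sequence and not a measured site.

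Tac1 (chromosome 6, 7554879 to 7565834, plus strand) encodes the precursor of substance P and neurokinin A, excitatory peptides of sensory and midbrain circuits. From E19 to P21 its levels in excitatory neurons were 69.7 (65.0 to 74.7), 25.6, 14.9 and 16.9 CPM (14.9 to 19.2). In inhibitory neurons it was 31.0, 23.5, 27.4 and 14.1 CPM, and in non-neuronal nuclei 26.7, 10.2, 14.3 and 8.96 CPM. The excitatory level was highest at E19, while the inhibitory intervals of E19, P4 and P8 overlapped.

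In excitatory neurons the Tac1 log2 ratio from E19 to P4 was -1.29 (-1.44 to -1.13), and from E19 to P21 it was -1.77. The first of these fell short of the fold with 20 CPM added (-0.97) or with subtypes weighted alike (-0.999). In inhibitory neurons the ratio from E19 to P21 was -0.92, short of the fold. The log2 ratio of inhibitory to excitatory neurons was -1.05 at E19 and 0.70 at P8, so that the class with more Tac1 differed between these stages. At P4 (-0.11, -0.33 to 0.12) and P21 (-0.20, -0.42 to 0.02) the interval included 0.

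Among subtypes with at least 20 nuclei, IN3 had the highest Tac1 level at each stage, with 169 (126 to 222), 126, 117 and 52.2 CPM (42.6 to 63.2). EN8 followed at E19 with 102 CPM and EN1 with 92.8 CPM. EN1, the largest subtype at that stage, then had 36.0, 10.9 and 25.8 CPM, lowest at P8. EN1 supplied 47.4% of the neuronal Tac1 UMIs at E19, from 23.0% of the neurons, and 4.99% at P8, from 6.70%. IN3 supplied 41.1% at P8, from 11.0% of the neurons.

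Neurons with at least 5 Tac1 UMIs numbered 47, 21, 10 and 14 from E19 to P21, and no non-neuronal nucleus reached 5. EN1 gave 29 of the 47 at E19, and IN3 gave 7 of the 10 at P8. In IN10 the level was 24.6 CPM at E19 from 5 UMIs, 0 at P4 and 9.83 CPM at P8 from 6. Its 42.0 CPM at P21, from 19 UMIs, was the second highest of that stage among subtypes with at least 20 nuclei. Of these UMIs 8 were in 1 nucleus, and the log2 ratio from E19 to P21 was 0.67 (-0.53 to 1.87).

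Cck (chromosome 9, 121489824 to 121495694, minus strand) encodes cholecystokinin, a gut and brain peptide found in many cortical and thalamic neurons. In excitatory neurons its levels were 23.9 (21.2 to 26.9), 20.9, 5.31 and 12.9 CPM (11.1 to 14.9) in order of age. Inhibitory neurons had 8.55, 9.71, 2.80 and 3.89 CPM, and non-neuronal nuclei 5.09, 12, 5.11 and 5.79 CPM. The excitatory level was above the inhibitory level at all 4 stages, past the fold at E19 (log2 ratio of inhibitory to excitatory -1.09) and P21 (-1.01). The inhibitory intervals lay around or below the non-neuronal levels at P4, P8 and P21.

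The lower Cck level at P8 rested in part on 1 subtype. The excitatory log2 ratio from P4 to P8 was -1.33 (-1.55 to -1.11), and without EN7 it was -0.62, short of the fold, as it was with 20 CPM added (-0.69) or subtypes weighted alike (-0.54). EN7 held 64.5 CPM at P4 (55.4 to 74.7) and 48.0% of the neuronal Cck UMIs of that library, and 8 of the 9 neurons with at least 5 Cck UMIs were EN7. It had 6.43 CPM at E19, from 2 UMIs, and fewer than 20 nuclei at P8 and P21.

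EN8 was the highest Cck subtype at the other 3 stages, with 77.6 CPM at E19 (55.7 to 105), 13.8 at P8 and 41.8 at P21 (31.6 to 54.2), and 21.2 CPM at P4. Its level at P21 lay above that at P8 with a log2 ratio of 1.31. EN9 and EN5 had the same order, with 6.37 and 10.1 CPM at P8 and 30.7 and 27.6 CPM at P21. EN1 had 34.2 CPM at E19 and 10.4, 4.80 and 6.16 CPM afterwards, and its intervals at P8 and P21 overlapped.

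Npy (chromosome 6, 49822710 to 49829507, plus strand) encodes neuropeptide Y, a peptide of many inhibitory interneurons. In inhibitory neurons its levels were 22.3 (18.7 to 26.4), 6.11, 1.17 and 1.77 CPM (1.08 to 2.73) in order of age. Excitatory neurons had 2.60, 1.61, 0.910 and 0.411 CPM, and non-neuronal nuclei 2.54, 3.69, 2.39 and 1.49 CPM. Inhibitory neurons stood above the non-neuronal nuclei at E19, and at P8 and P21 their levels were near those of the non-neuronal nuclei.

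The inhibitory log2 ratio of Npy was -1.30 from E19 to P4 (-1.62 to -0.98) and -2.01 from E19 to P21. With 20 CPM added both fell short of the fold (-0.70 and -0.96), as the first did with subtypes weighted alike (-0.95). Most Npy UMIs at E19 came from a single subtype: IN1 held 52.0 CPM, 74.8% of the neuronal Npy UMIs, and all 11 of the neurons with at least 5 Npy UMIs. IN1 had 14.5 CPM at P4, no UMI at P8 and 8.01 CPM at P21. Here and below, a count of 0 is said to allow up to the CPM of 3 counts, which is 3.89 CPM for IN1 at P8. The exact Poisson interval reaches higher, to 4.78 CPM there. Of 26 neurons with at least 2 Npy UMIs at E19, 7 also had at least 2 Sst UMIs (26.9%), and all 7 were IN1. Among all neurons of that library 13.0% had at least 2 Sst UMIs, and the share within IN1 is not given here.

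**Figure D3:**
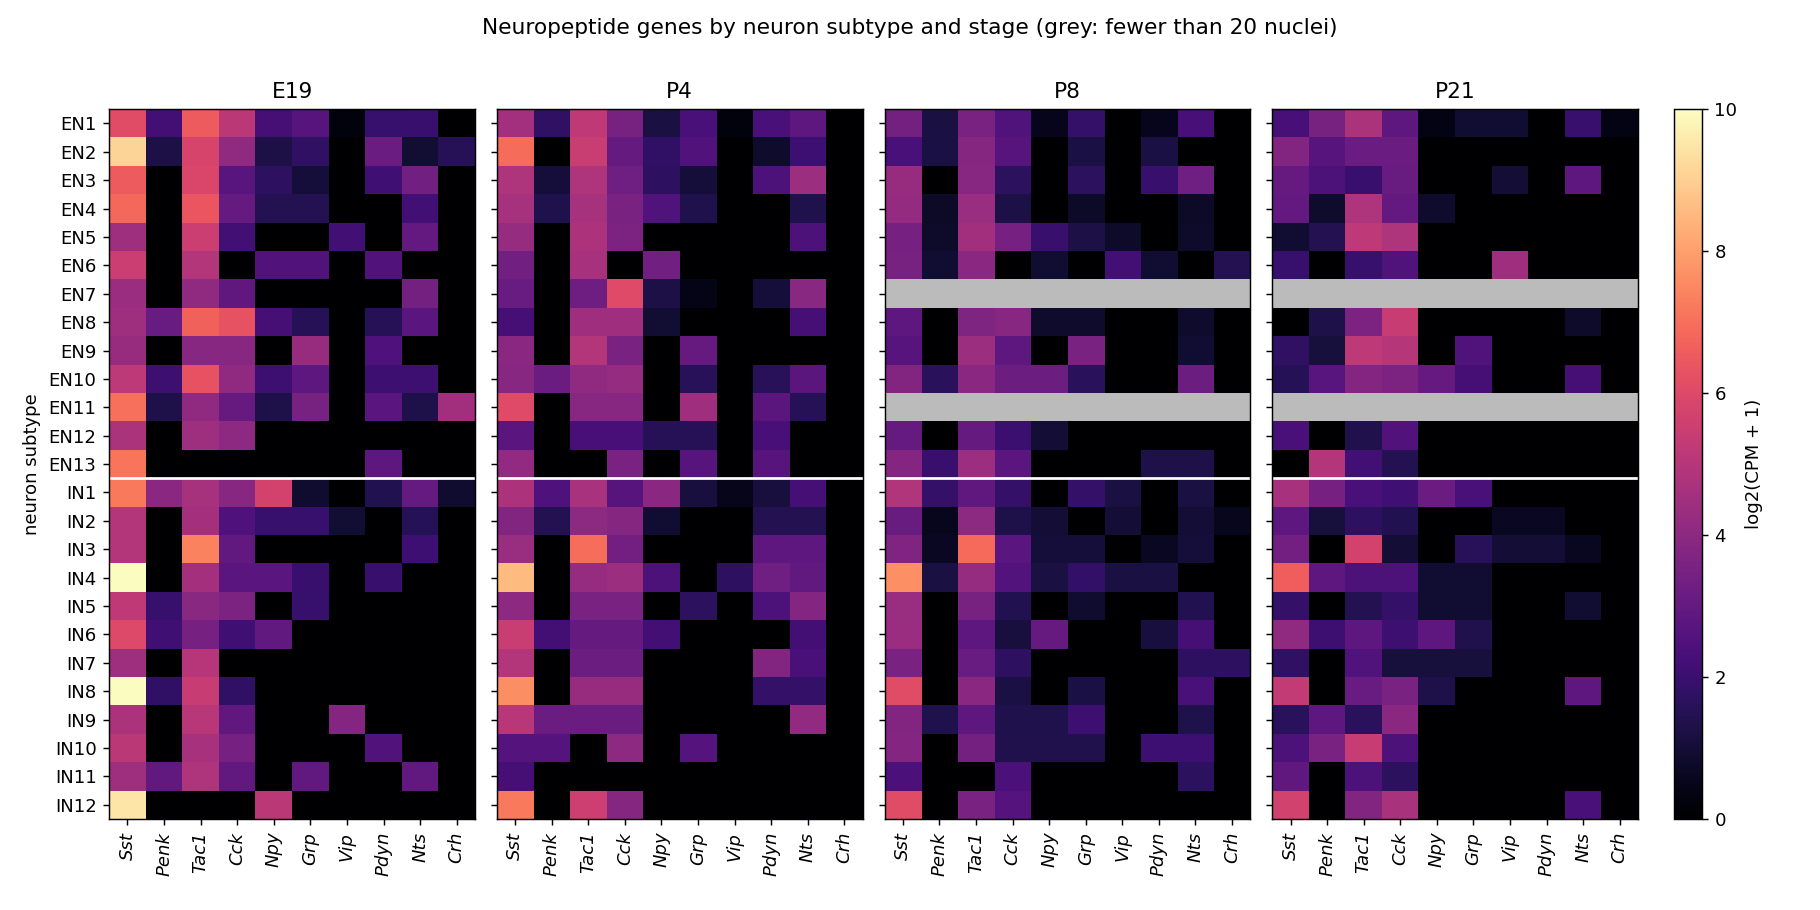
Level of the 10 genes (columns) in 25 neuron subtypes (rows, excitatory above the white line) at each stage, as the log2 of CPM plus 1 in colour, with grey for subtypes that had fewer than 20 nuclei. Sst is brightest in IN4, IN8, IN12 and EN2 at E19, Tac1 in IN3 at every stage, Cck in EN8 at E19 and P21 and in EN7 at P4, and Vip in EN6 at P21.

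The opioid precursors Penk and Pdyn encode the enkephalins and dynorphins. Penk (chromosome 4, 4133531 to 4138819, minus strand) overlaps A830012C17Rik on the opposite strand, and no source used here says whether counting used the strand, so UMIs of the pair cannot be told apart. Its excitatory levels were 2.34 (1.54 to 3.41), 1.28, 0.834 and 5.41 CPM (4.28 to 6.74) in order of age. Its inhibitory levels were 6.37 (4.51 to 8.75), 2.50, 0.541 and 3.01 CPM, and the non-neuronal levels 1.27, 0.923, 1.02 and 2.05 CPM. Both classes were lowest at P8, and the excitatory interval at P21 lay above those of the 3 earlier stages.

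IN1 led Penk at E19 and was still among the higher subtypes at P21, on few molecules. At E19 IN1 held 14.5 CPM, from 34 of the 65 neuronal UMIs. At P21 EN13 held 29.6 CPM, IN10 held 11.0 CPM from 5 UMIs, and IN1 held 10.0 CPM. The IN1 log2 ratio from E19 to P21 was -0.38 (-0.98 to 0.23). EN1 held 10.3 CPM at P21 from 35 UMIs, 10 of them in 1 nucleus, against 1.31 CPM at P8. The EN13 value rested on 1 nucleus with 12 UMIs and was 9.07 CPM without it. The share of excitatory neurons with a Penk UMI was 6.16% at P21 against 1.35% of non-neuronal nuclei, at median depths of 19601 and 6062 UMIs, and after thinning it was 2.05% against 0.612%. Pdyn (chromosome 2, 129686565 to 129699844, minus strand) had 3.73, 2.48, 0.606 and 0 CPM in excitatory neurons and 1.01, 2.66, 0.451 and 0.265 CPM in inhibitory neurons. Its 0 excitatory UMIs at P21 allow up to 0.205 CPM. Non-neuronal nuclei had 1.91, 1.38 and 0.682 CPM of Pdyn from E19 to P8, from 3 UMIs or fewer at each stage, and 0 at P21 (up to 0.560).

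The other 4 genes had few UMIs, and most Vip UMIs at P21 and Crh UMIs at E19 came from 1 subtype each. Vip (chromosome 10, 5639218 to 5647617, plus strand), the vasoactive intestinal peptide of disinhibitory interneurons in cortex, had 1.85 CPM in excitatory neurons at P21 (1.22 to 2.69) and between 0.0671 and 0.379 CPM at the earlier stages. In inhibitory neurons it stayed between 0.265 and 0.503 CPM, and non-neuronal nuclei had 0.636 and 0.923 CPM at E19 and P4, from 1 and 2 UMIs. At P8 and P21 no non-neuronal nucleus held a UMI, which allows up to 1.02 and 0.560 CPM. EN6 held 22 of the 30 neuronal Vip UMIs at P21, 21.1 CPM (13.2 to 31.9), and 16.5 CPM without its richest nucleus. The same subtype had 3.47 CPM at P8 and no UMI at E19 and P4, which allows up to 14.9 and 9.04 CPM.

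Nts (chromosome 10, 102481756 to 102490486, minus strand), the precursor of neurotensin, was highest at P4 in excitatory neurons, with 3.21, 7.18, 2.35 and 1.85 CPM from E19 to P21. The P4 interval of 5.89 to 8.68 CPM lay above those of the other 3 stages. EN3 led at P4 with 19.9 CPM, and EN7 had 14.1 CPM from 39 UMIs. In inhibitory neurons Nts was 3.52, 4.23, 1.71 and 0.619 CPM. Non-neuronal nuclei had 5.73 (2.62 to 10.9), 0.923, 0.341 and 0.747 CPM, so that neither neuron class stood above them at E19.

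Grp, the precursor of gastrin-releasing peptide, overlaps an annotated antisense gene, AC152076.4. It had 4.25, 3.16, 2.27 and 0.753 CPM in excitatory neurons and 6.36, 2.77, 1.36 and 0 CPM (up to 0.560) in non-neuronal nuclei, so that the class level was near the non-neuronal level from E19 to P8. Its leading subtypes were EN9, with 18.3 CPM at E19 from 4 UMIs and 10.9 CPM at P8 from 12, and EN11, with 21.4 CPM at P4 from 11. Crh (chromosome 3, 19693401 to 19695396, minus strand), the precursor of the stress peptide corticotropin-releasing hormone, had 21 neuronal UMIs at E19 and 0 in the non-neuronal nuclei (up to 1.91 CPM). EN11 held 15 of them, 12 in 1 nucleus, and its 21.8 CPM became 4.48 CPM without that nucleus.

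**Figure D4:**
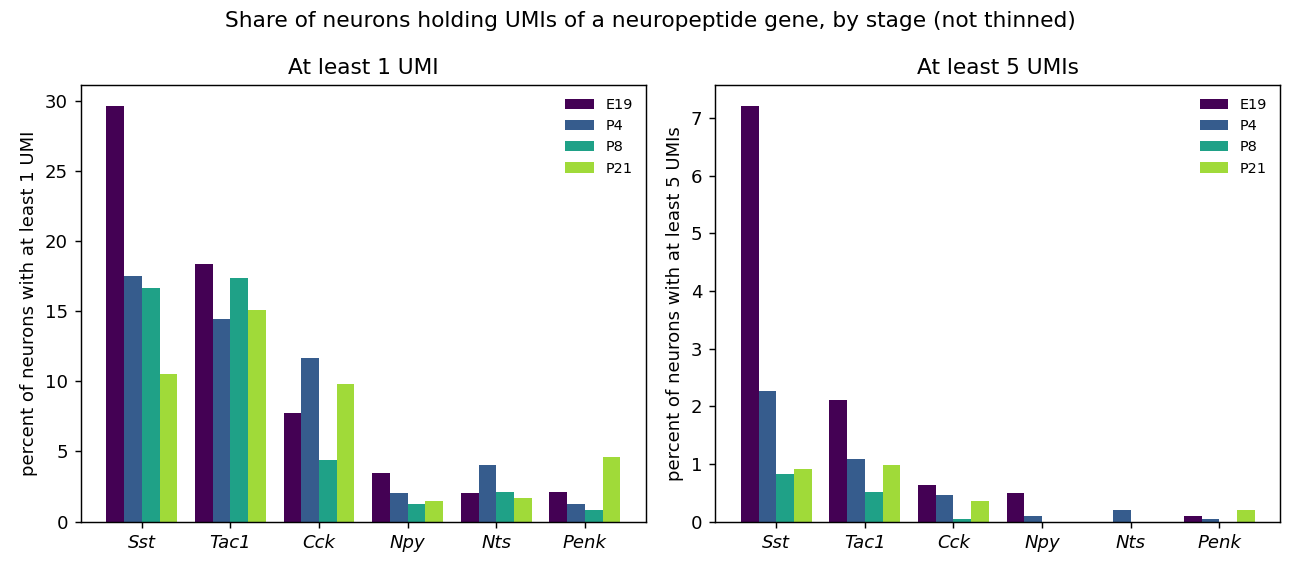
Percent of all neurons with at least 1 UMI (left) and at least 5 UMIs (right) of 6 of the genes, with 1 bar per stage and no thinning. The share with at least 5 Sst UMIs goes from 7.22% at E19 to 0.818% at P8. At least 5 Tac1 UMIs are held by 47 of 2231 neurons at E19, 10 of 1955 at P8 and 14 of 1422 at P21. The share with any Tac1 UMI, which is not corrected for the deeper later libraries, is 18.4% at E19 and 15.0% at P21.

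Molecules of 2 peptides in 1 nucleus were counted for neurons with at least 2 UMIs of each. At E19, 11 neurons had Tac1 and Cck, 27.5% of the 40 with Cck, and they were EN1 (6) and EN8 (5), while 6.23% of all neurons had at least 2 Tac1 UMIs. At P4 the pair met in 1 neuron, 1.75% of those with Cck against 3.498% of all neurons with Tac1, and at P8 in 0 of the 10 with Cck. At P21, 6 neurons had both, 11.3% of those with Cck against 5.84% of all neurons. The share with Tac1 was thus higher among the neurons with Cck than among all neurons at E19 and P21, and lower at P4 and P8, on few nuclei. Comparison with all neurons leaves differences in subtype and depth in these shares. Shares within subtypes are not given here. Sst and Tac1 met in 11 neurons at E19, 7.91% of those with Tac1, against 13.0% of all neurons with at least 2 Sst UMIs. They met in 8 neurons at P4 (11.8% against 6.07%), 3 at P8 (3.49% against 4.86%) and 6 at P21 (7.23% against 4.29%), so that the direction differed between libraries. Apart from these and the pair of Sst and Npy given above, each pair counted met in at most 2 neurons of a library.

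Genes whose levels followed a member over the 96 subtype and library profiles were sought by Pearson correlation of log2 CPM (5 CPM added), as a description of profiles that share libraries and depth. The most like Sst were Sppl3 (r = 0.69), Kalrn (0.67) and Zcchc12 (0.67), with Kalrn and Zcchc12 highest in IN4 at E19. For Tac1 they were Gpr27 (0.52), Cct4 (0.51) and C530008M17Rik (0.49). Likeness was weaker for Penk, with Senp5 (0.45), Cnnm2 (0.43) and Spop (0.41), and for Cck, with Osbpl5 (0.39), Vcan (0.39) and Slc35f1 (0.38).

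Most genes that cut, sort and release peptides were not past the fold. Of 18 processing genes, 17 had at least 5 CPM in excitatory neurons and 18 in inhibitory neurons, and from E19 to P21 1 was lower and 2 were higher past the fold in each class, beside the 9.46% and 10.1% lower and 4.43% and 4.85% higher over all genes. Their median log2 ratio was 0.14 in excitatory and 0.34 in inhibitory neurons, beside -0.08 and -0.07 over all genes. The lower gene was Pcsk1n in both classes, the inhibitor of the prohormone convertase PC1, with 344, 193, 74.1 and 133 CPM in excitatory neurons (-1.34 from E19 to P21) and a ratio of -1.60 in inhibitory neurons.

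The higher processing genes included that convertase itself. Pcsk1 had 11.2, 12.02, 14.5 and 49.3 CPM in excitatory neurons (1.75) and a ratio of 1.03 in inhibitory neurons. Cadps2, a priming factor of dense-core vesicles, was higher in excitatory neurons (1.02), and Ptprn, a dense-core vesicle membrane protein, in inhibitory neurons (1.37). Ptprn2, Cadps and Pam had ratios of -0.34, 0.14 and 0.79 in excitatory neurons, all short of the fold.

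Most receptors of the members' peptides were under the filter on low levels. Of 26, 11 reached the mean level in excitatory neurons and 9 in inhibitory neurons, and from E19 to P21 none was lower past the fold, beside 9.46% and 10.1% of all genes. None was higher in excitatory neurons, beside 4.43% of all genes, and 2 were in inhibitory neurons, beside 4.85%: Oprk1 (1.20), the dynorphin receptor, and Vipr2 (1.00), a receptor of vasoactive intestinal peptide. Sort1, the neurotensin-binding sorting receptor sortilin, had ratios of 0.15 in excitatory and 0.28 in inhibitory neurons, and Crhr1, a receptor of corticotropin-releasing hormone, had 0.17 and -0.22, all short of the fold. Oprm1, the receptor of enkephalins and endorphins, had 47.1, 68.5, 99.0 and 82.6 CPM in excitatory neurons. Tacr1, which binds substance P, had 37.9, 48.0, 73.9 and 68.5 CPM there. Oprm1 and Tacr1 were thus both lowest at E19 in these neurons, and both were short of the fold from E19 to P21.

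Among 33 other neuropeptide genes, 2 reached the mean level in excitatory neurons and 3 in inhibitory neurons. From E19 to P21, 0 of the 2 were lower past the fold in excitatory neurons, beside 9.46% of all genes, and 1 of the 3 in inhibitory neurons, beside 10.1%. None was higher, beside 4.43% and 4.85%. The lower gene was Pnoc, the precursor of nociceptin, which had 93.3, 27.9, 20.03 and 13.1 CPM in inhibitory neurons, a log2 ratio of -2.44. In excitatory neurons its ratio was -1.15 with a mean level of 4.72 CPM, just under the filter. Agrp, Adcyap1 and Nmb had no ratio past the fold in the classes where they reached the mean level.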

How the data were processed

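Nuclei were captured with 10x Genomics 3′ v3 chemistry and processed with Cell Ranger 3.0.2 against a pre-mRNA reference of mm10, per the labels, so that intronic reads entered the counts. The authors deposited UMI counts per gene and nucleus, not normalised, and other columns of names (stage, class, subtype), which were used as given. How nuclei were filtered, doublets treated and classes named is not given in the sources used here, and no further filter or doublet caller was applied. A further 10 columns of the deposited nucleus table were not used.

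UMIs were summed per library and class or subtype (at least 20 nuclei) and scaled to CPM. Intervals were computed with scipy 1.17.1 and tables with pandas 2.3.3 in Python 3.11.15. With 1 library a stage there was no test and no p-value. The ratio script was checked on simulated data. Alternatives were a pseudocount of 1 or 20 CPM, median-of-ratios scaling, equal weights of nuclei or subtypes, thinning to 2000 UMIs, leaving out EN7 or the richest nucleus, classes rebuilt from transmitter genes, and no filter on low values.

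The 10 genes and all gene lists were chosen with earlier results of these data known. Named were all 10 members, the 3 genes of each list with the highest mean CPM (not scaled to length) in a neuron class and those past the fold (at most 5), and for Sst, Penk, Tac1 and Cck the 3 genes most alike in profile among those with a mean of at least 20 CPM, with haemoglobin genes, sex-linked genes and those of mitochondria and ribosomal proteins left out. Positions came from GENCODE M21 (31011 of 31053 gene IDs matched) and promoters from RefSeq on GRCm38.p6. The library totals were 19277512, 23579145, 27436259 and 31325079 UMIs from E19 to P21.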

Additional observations from a re-analysis of the deposited data

How the results depend on the processing

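Of 9 log2 ratios of members past the fold, 78 of 86 values under alternatives remained past it, 8 fell short and 0 changed sign. Sst stayed past the fold in each. Its ratio from E19 to P4 in excitatory neurons was -2.51 with 1 CPM added, -1.92 with 20 CPM, -1.70 with subtypes weighted alike, -2.20 without EN7 and -2.80 with non-neuronal UMIs subtracted (chosen after seeing the data). In inhibitory neurons it was -1.65 with 20 CPM added, -1.54 after thinning and -2.06 after that subtraction. The 8 that fell short were Tac1 from E19 to P4 (-0.97 with 20 CPM, -0.999 with subtypes alike), Cck from P4 to P8 (-0.69, -0.54 and, without EN7, -0.62), Npy from E19 to P4 (-0.70 and -0.95) and Npy from E19 to P21 (-0.96 with 20 CPM). With 20 CPM added, 1 member instead of 2 was lower at P21 in inhibitory neurons, and with subtypes weighted alike, 1 instead of 0 was higher in inhibitory neurons in all 4 libraries; the cause was not tested. Median-of-ratios scaling moved the median of all genes from E19 to P21 from -0.08 to 0.01 in excitatory neurons. No paired analysis was possible because each stage had 1 library, and no replicate could be left out. Depth limits Vip and Crh most: Vip had 5, 3, 9 and 30 neuronal UMIs from E19 to P21, and Crh had 21 at E19.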
